A study of Mus musculus with 9 samples.

Results

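Cytosolic ribosomal protein genes were followed in regulatory T cells of wild type mice and of mice with a conditional deletion of Sirt1. Members were taken by symbol from the array's annotation: Rpl or Rps followed by a number with an optional letter, or Rplp0, Rplp1, Rplp2 or Rpsa, without pseudogenes and without the S6 kinases. This gave 44 of the 12393 genes named on the array. Each was read on the brightest probe set annotated to that gene alone. A probe set is a group of short oligonucleotides that report 1 transcript, and its value is a log2 signal, so a difference of 1 is a doubling. Rps4l fitted the spelling but is listed as a pseudogene in RefSeq and was left out. A further 27 ribosomal protein genes, Rpl3, Rpl5, Rplp1 and Rps16 among them, appeared only on probe sets annotated to several genes, in most cases together with a pseudogene or a predicted gene, and were not analysed as members.

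The study asked how loss of Sirt1, a gene for an NAD-dependent protein deacetylase, affects regulatory T cells. RNA came from CD4+CD25+ cells that were separated with magnets, on a C57BL6 background. The 9 arrays were 3 from wild type animals, 3 from a conditional Sirt1 knockout with the CD4 cre recombinase and 3 from a conditional Sirt1 knockout with the Foxp3 cre recombinase. CD4 cre acts in T cells that pass through a CD4-positive stage, and Foxp3 cre acts in cells that express the regulatory T cell factor Foxp3. The labels state neither the part of Sirt1 that was removed nor the age of the mice, nor whether the wild type mice carried a cre gene.

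A cytosolic ribosome has a small subunit, which reads the mRNA and whose proteins are named Rps, and a large subunit, which joins amino acids and whose proteins are named Rpl. Most of these proteins are needed in equal numbers, and their mRNAs are among the most abundant of a cell. Many of these mRNAs begin with a C followed by a run of pyrimidines, the terminal oligopyrimidine tract, through which the mTOR pathway and the binding protein Larp1 set their translation. T cells raise ribosome production when they are activated.

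Start sequences are shown because the tract is a feature that the choice of members did not use, and because the members described in most detail below differ in it. RefSeq start sites of the assembly GRCm38.p6 were found for 39 of the 44 members. Each line gives 15 bases before the annotated start and 15 from it onwards, and capitals mark a C and the pyrimidines after it at that start, where at least 4 follow.
Rps6, chr4:86857353-86857382, minus strand: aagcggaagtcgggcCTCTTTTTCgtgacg
Rplp2, chr7:141447636-141447665, plus strand: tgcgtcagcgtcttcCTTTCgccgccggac
Rps27, chr3:90213634-90213663, minus strand: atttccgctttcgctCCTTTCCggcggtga
Rps27l, chr9:66946071-66946100, plus strand: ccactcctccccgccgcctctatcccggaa
Rpl39, chrX:37085208-37085237, minus strand: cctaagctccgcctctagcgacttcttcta
Rpl39l, chr16:10170213-10170242, plus strand: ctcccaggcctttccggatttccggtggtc

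Rps6, Rplp2 and Rps27 have such a tract at the annotated base, and Rps27l, Rpl39 and Rpl39l do not. When a tract may begin within 5 bases of an annotated start, Rps27l and Rpl39 each have 1 window with one and Rpl39l has none. Over all members, 8 of 47 start windows (17.0%) opened with the tract, against 2.51% of the 32851 windows of all genes. Counting tracts that begin within 5 bases of the annotated start, the share was 42.6% against 18.3%. The letters CCGGAAG, a core that ETS family factors recognise, lay on either strand of 20 of 47 windows from 250 bases before to 50 after the start (42.6%), against 8.86% of all windows. The E-box CACGTG was found in 10.6% of the members' windows against 7.15%, AAGATGG in 12.8% against 6.34% and TATAAA in 10.6% against 13.6%. These shares describe letters only, and several windows belong to 1 gene.

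Probe sets for 32 members lay at the top of the signal range, with means over the 9 arrays of 12.56 to 13.70. They were at or above at least 99.2% of all probe sets and between 0.18 and 1.65 below the highest signal of an array. Whether differences are compressed at that height was not tested. The other 12 members had means from 2.93 to 11.92. A brighter probe set does not show more mRNA, because probe sets differ in how strongly they bind, so the order of the genes is the order of the probe sets only. Brightest were Rps29 and Rps28, small proteins of the small subunit, and Rplp2, a protein of the stalk that recruits translation factors. Rplp2 gave 13.70, 13.72 and 13.72 in wild type, 13.69, 13.72 and 13.65 in the CD4-cre knockout and 13.69, 13.71 and 13.66 in the Foxp3-cre knockout, so the groups overlapped. Dimmest were Rpl39l, Rpl39 and Rpl3l. Rpl3l, the striated muscle paralog of Rpl3, read 3.03, 3.32 and 2.72 in wild type and 2.59 to 3.15 in the knockouts. It lay below the threshold of 4.98 used for testing, the 40th percentile of the gene means, so 43 members were tested.

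**Figure D1:**
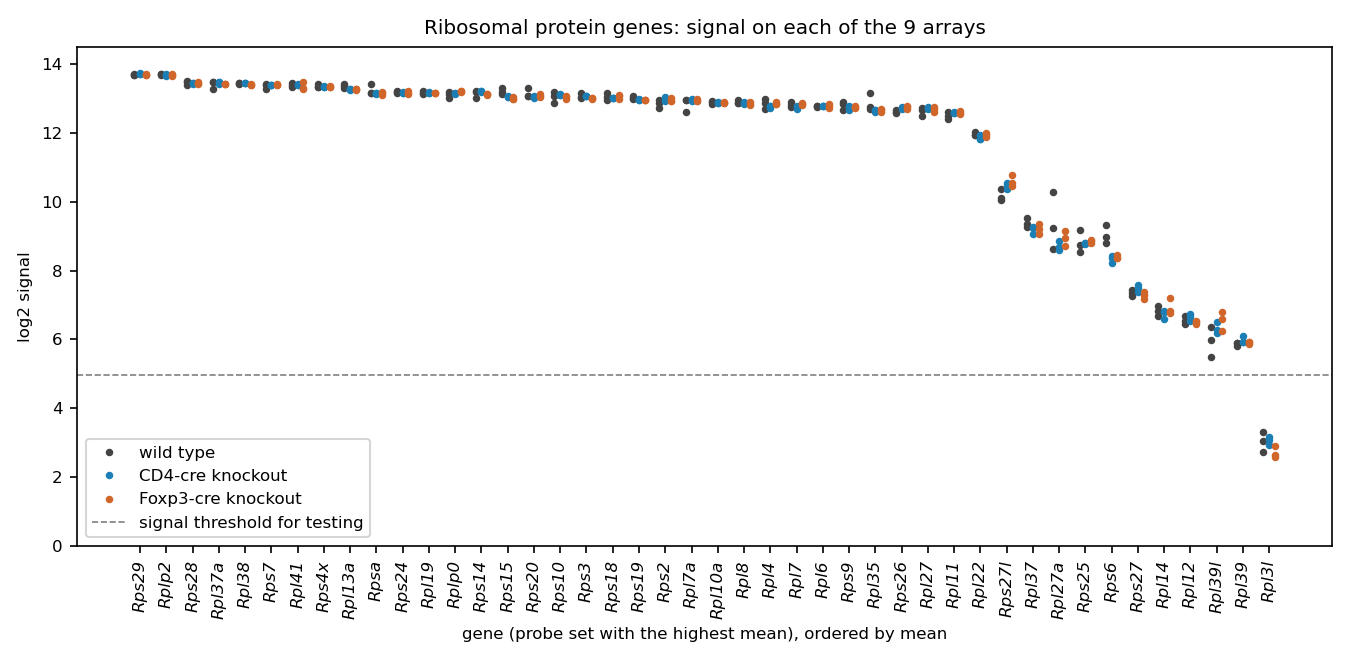
Log2 signal of each of the 44 members (x axis, ordered by mean) on each of the 9 arrays, coloured by genotype, with the threshold for testing as a dashed line. The 32 brightest lie between means of 12.56 and 13.70 with little space between genotypes, and Rpl27a, Rps6 and Rpl39l show the widest spreads among the dimmer genes.

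Of the ribosomal protein genes 1, Rps6, was called lower in both knockouts on the probe set used, and no other member was called. Tests were limma's, fitted to all 7436 genes at or above the threshold, with Benjamini-Hochberg adjustment over all of them, and a gene was called at an adjusted p below 0.05. In the CD4-cre knockout 0 members were called higher and 1 lower, against a background of 0.659% of all tested genes called (0.229% higher and 0.43% lower). In the Foxp3-cre knockout 0 were called higher and 1 lower, against 3.36% of all genes (1.69% higher and 1.67% lower). Between the knockouts 0 members were called, against 0.0134% of all genes. At an unadjusted p under 0.05 there were 2, 4 and 0 members in the 3 comparisons, which is 4.65%, 9.30% and 0% of the 43 against 14.08%, 21.3% and 11.3% of all genes. Both knockouts were set against the same 3 wild type arrays, so their differences are not independent of each other.

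The median difference of the 43 members was -0.01 log2 in the CD4-cre knockout, where the median over all tested genes was 0.03. It was -0.02 in the Foxp3-cre knockout against 0.01 over all genes, and -0.00084 between the knockouts against -0.02. Of the 43 members, 30 lay within 0.1 log2 of wild type in the CD4-cre knockout (69.8%, against 43.6% of all genes). The count was 32 in the Foxp3-cre knockout (74.4%, against 36.6%) and 37 between the knockouts (86.0%, against 52.2%). Most members are much brighter than most genes, and at their height a small difference cannot be read as a stable mRNA level. Among genes with a mean of 12 or more, a range chosen after seeing the data, 26 of 32 members (81.2%) and 30 of 54 other genes (55.6%) lay within 0.1 in the CD4-cre knockout. In the Foxp3-cre knockout it was 27 of 32 (84.4%) and 26 of 54 (48.1%), and the median residual SD was 0.055 and 0.090. These shares are a description and were not tested. The small subunit (20 tested genes) had medians of -0.02 and -0.02 in the 2 knockouts and the large subunit (23 genes) -0.01 and -0.0019.

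**Figure D2:**
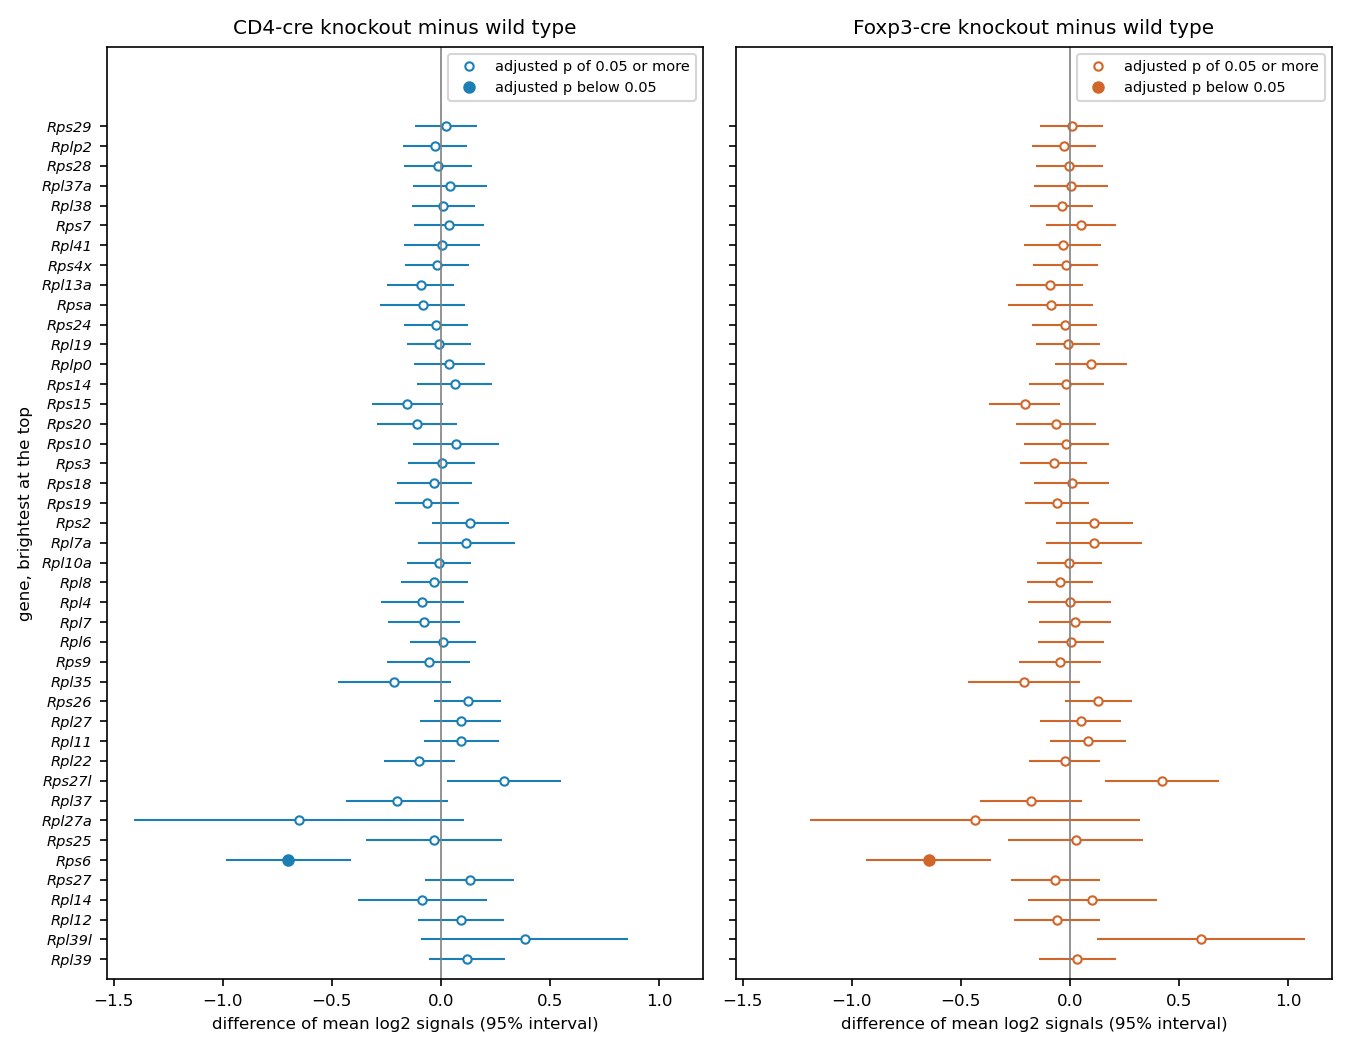
Difference of mean log2 signal from wild type for the 43 tested members (points) with limma's 95% interval (lines), CD4-cre knockout on the left and Foxp3-cre knockout on the right; filled points have an adjusted p below 0.05. Rps6 is the filled point in both panels, at -0.70 and -0.65, and most other points lie within 0.1 of 0.

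Among the 32 bright members the differences spanned -0.21 to 0.14 in the CD4-cre knockout and -0.21 to 0.13 in the Foxp3-cre knockout. Their 95% intervals reached at most from -0.47 to 0.34 and from -0.47 to 0.33. Between the knockouts the differences ran from -0.09 to 0.10, with intervals from -0.28 to 0.28. The arrays of a knockout lay wholly apart from wild type for 10 members in the CD4-cre knockout, 3 higher and 7 lower, where 21% of all genes did so (members 23.3%). For the Foxp3-cre knockout it was 8 members, 3 higher and 5 lower, or 18.6% against 23.4%. Between the knockouts it was again 8, 3 higher and 5 lower, or 18.6% against 29.7%.

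Rps6 is the small subunit protein that the S6 kinases phosphorylate when mTOR is active. Its probe set read 8.99, 9.34 and 8.80 on the wild type arrays. The CD4-cre arrays read 8.38, 8.41 and 8.23, and the Foxp3-cre arrays 8.37, 8.45 and 8.36. All 6 knockout arrays lay below all 3 wild type arrays. The difference was -0.70 in the CD4-cre knockout (SE 0.13, limma adjusted p = 0.0499), a signal at 0.616 of wild type. In the Foxp3-cre knockout it was -0.65 (SE 0.13, limma adjusted p = 0.0305), a signal at 0.639 of wild type. The knockouts differed by 0.05 (95% interval -0.23 to 0.34, limma adjusted p = 0.947).

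The call of Rps6 lay close to the threshold and rested on 1 probe set. Wild type replicate 2 had the highest signal, and without it the differences were -0.55 (limma adjusted p = 0.0177) and -0.50 (limma adjusted p = 0.0162). Over 19 other settings the CD4-cre difference ran from -0.82 to -0.35 and was called in 6, with limma adjusted p from 0.00447 to 0.227. The Foxp3-cre difference ran from -0.77 to -0.28 and was called in 11, with limma adjusted p from 0.00669 to 0.159. With the median over the gene's probe sets the differences were smallest, at -0.35 (limma adjusted p = 0.175) and -0.28 (limma adjusted p = 0.159). Another 8 tested probe sets were annotated to Rps6 together with its pseudogene Rps6-ps4, with means from 9.003 to 13.81. Their differences ran from -0.30 to 0.05 in the CD4-cre knockout and from -0.20 to 0.04 in the Foxp3-cre knockout. In each knockout 6 of the 8 were lower. The brightest, with means of 13.81 and 13.54, showed no fall (0.05 and 0.01 in the CD4-cre knockout, 0.04 and 0.01 in the Foxp3-cre knockout). With each probe set tested alone, 0 of these 8 were called, and the lowest adjusted p was 0.276. Without wild type replicate 2 they ran from -0.20 to 0.02 and from -0.05 to 0.01, so the fall seen on the probe set of Rps6 alone was larger than on any of the shared ones. The other probe set of Rps6 alone read 2.78 to 3.27 on the 9 arrays, below the threshold.

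**Figure D3:**
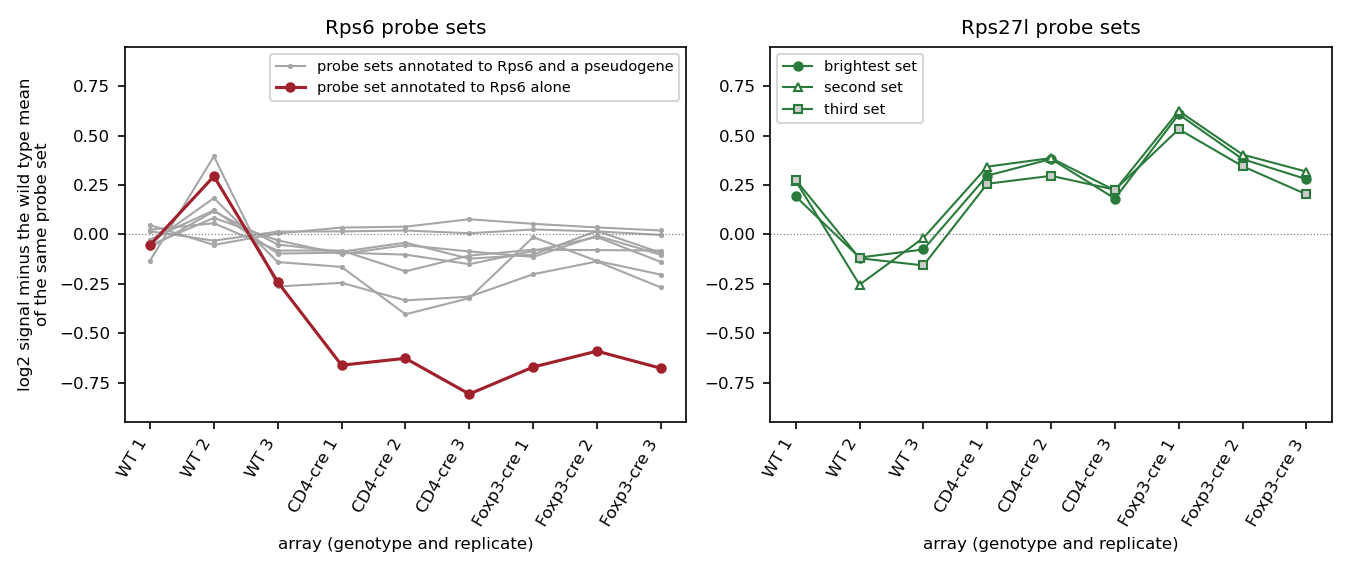
Log2 signal of each probe set minus its own wild type mean on the 9 arrays, for Rps6 (left; red, the probe set annotated to Rps6 alone; grey, the 8 annotated also to a pseudogene) and for the 3 probe sets of Rps27l (right). The red line drops below the grey lines on all 6 knockout arrays, whereas the 3 Rps27l lines follow each other and are highest on Foxp3-cre replicate 1.

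Rps27l is a paralog of Rps27 that p53 induces. Its brightest probe set read 10.37, 10.06 and 10.10 in wild type, 10.47, 10.56 and 10.36 in the CD4-cre knockout and 10.78, 10.56 and 10.46 in the Foxp3-cre knockout. The Foxp3-cre arrays lay above all wild type arrays, and CD4-cre replicate 3 fell just below wild type replicate 1. The differences were 0.29 (SE 0.12, limma adjusted p = 0.315) and 0.42 (SE 0.12, limma adjusted p = 0.0829), neither called. With the replicate number as a block, a pairing taken from these same data, the Foxp3-cre difference had a limma adjusted p of 0.0496. Without wild type replicate 1 the difference was 0.52 (limma adjusted p = 0.0415). Without wild type replicate 2 it was 0.37 (limma adjusted p = 0.0987). Over 19 other settings the Foxp3-cre difference ran from 0.33 to 0.52 and was called in 3, with limma adjusted p from 0.0147 to 0.217. The other 2 probe sets of the gene gave 0.32 and 0.26 in the CD4-cre knockout and 0.45 and 0.36 in the Foxp3-cre knockout. All 3 thus pointed the same way, but they measure the same RNA on the same arrays. Rps27 itself, which forms part of the small subunit, read 7.36, 7.26 and 7.43 in wild type. It read 7.58, 7.50 and 7.37 in the CD4-cre knockout and 7.28, 7.39 and 7.19 in the Foxp3-cre knockout. On this probe set the groups overlapped (differences 0.13 and -0.07). A brighter probe set annotated to Rps27 and Rps27rt, with a mean of 13.47, differed by -0.10 and -0.19. Its knockout arrays all lay below wild type, but neither difference was called (limma adjusted p = 0.591 and 0.233 over all probe sets).

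Rpl39l, a paralog of Rpl39 best known from the testis, had the largest positive difference of a member. It read 5.50, 6.35 and 5.97 in wild type, 6.28, 6.50 and 6.19 in the CD4-cre knockout and 6.23, 6.60 and 6.79 in the Foxp3-cre knockout. Wild type replicate 2 lay among the knockout arrays. The differences were 0.38 (SE 0.21, limma adjusted p = 0.442) and 0.60 (SE 0.21, limma adjusted p = 0.147), neither called. Without wild type replicate 2 the Foxp3-cre difference was 0.80 (limma adjusted p = 0.0427), and without wild type replicate 1 it was 0.38 (limma adjusted p = 0.206). It was called in 2 of 18 other settings, with limma adjusted p from 0.00927 to 0.361. Rpl39, which lines the exit tunnel of the large subunit, read 5.90, 5.80 and 5.89 in wild type. It read 5.94, 5.92 and 6.10 in the CD4-cre knockout, above all wild type arrays (difference 0.12). In the Foxp3-cre knockout it read 5.86, 5.93 and 5.91 (difference 0.03), and neither difference was called. A brighter probe set annotated to Rpl39 and a predicted gene, with a mean of 13.32, differed by -0.10 and -0.02. Rps4x, the X-linked small subunit gene whose spelling pairs it with the pseudogene Rps4l, stayed between 13.34 and 13.42 on all 9 arrays. Rps4l read 5.16, 4.65 and 4.70 in wild type, 4.86, 4.85 and 4.52 in the CD4-cre knockout and 5.50, 5.29 and 5.26 in the Foxp3-cre knockout. Its Foxp3-cre arrays were the highest, but its mean lay just below the threshold, so it was not tested.

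On their brightest probe sets, other small subunit genes differed less from wild type. Rps15, of the head of the small subunit, read 13.18, 13.31 and 13.14 in wild type, 13.05, 13.07 and 13.04 in the CD4-cre knockout and 13.03, 12.997 and 12.98 in the Foxp3-cre knockout. The 3 groups did not overlap, but the differences of -0.15 (limma adjusted p = 0.374) and -0.21 (limma adjusted p = 0.147) were not called. The other probe set of Rps15, with a mean of 12.73, differed by -0.04 and -0.07. There the Foxp3-cre arrays lay below wild type, but the CD4-cre arrays overlapped both groups. Rps26, near the mRNA exit channel, read 12.67, 12.57 and 12.60 in wild type and 12.70 to 12.77 on the 6 knockout arrays, which all lay higher. Its differences of 0.12 and 0.13 were not called (limma adjusted p = 0.444 and 0.305). Rps2, at the mRNA entry, had differences of 0.14 and 0.11, and its wild type arrays at 12.94, 12.74 and 12.87 overlapped the CD4-cre arrays at 13.05, 12.98 and 12.94. Rpsa, also known as the laminin receptor, differed by -0.08 and -0.09, with wild type replicate 2 at 13.42 above the other arrays at 13.11 to 13.19. Rps25 was likewise highest on that array, at 9.18 against 8.55 to 8.88 on the others, with differences of -0.03 and 0.03. For Rps10, Rps18, Rps20 and Rps24 the differences lay between -0.11 and 0.07 in both knockouts.

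Large subunit genes had no call. Rpl27a read 8.62, 10.28 and 9.23 in wild type, 8.70, 8.60 and 8.87 in the CD4-cre knockout and 8.72, 9.14 and 8.95 in the Foxp3-cre knockout. Its differences of -0.65 (SE 0.34, limma adjusted p = 0.416) and -0.44 (SE 0.34, limma adjusted p = 0.464) carried a wide error, since the 3 wild type arrays spanned more than the difference. They rested on wild type replicate 2: without it Rpl27a differed by -0.20 (limma adjusted p = 0.570) and 0.016 (limma adjusted p = 0.972), so the Foxp3-cre difference changed sign. Without wild type replicate 1 they were -1.03 (limma adjusted p = 0.129) and -0.81 (limma adjusted p = 0.106). A brighter probe set annotated to Rpl27a and predicted genes, with a mean of 13.13, differed by -0.0060 and -0.0067. Rpl37 read 9.36, 9.53 and 9.27 in wild type and 9.26, 9.24 and 9.06 in the CD4-cre knockout. In the Foxp3-cre knockout it read 9.21, 9.34 and 9.07 (differences -0.20 and -0.18). A probe set annotated to Rpl37 and Rpl37rt, with a mean of 13.22, differed by 0.13 and 0.11, with all knockout arrays above wild type. Others annotated to both genes, with means of 12.44 and 6.31, differed by -0.21 and -0.08 and by -0.06 and -0.07. None of these shared sets was called. Rpl35 was highest on wild type replicate 2, at 13.15, with the other wild type arrays at 12.76 and 12.69 and the knockout arrays at 12.60 to 12.70 (differences -0.21 and -0.21). Its other tested sets, with means of 12.49 to 12.61, differed by -0.32 to -0.11 in the CD4-cre knockout and by -0.28 to -0.06 in the Foxp3-cre knockout. On every tested Rpl35 set the CD4-cre arrays lay below wild type, while the Foxp3-cre arrays overlapped wild type on most. None was called. Rpl7a was lowest on wild type replicate 2, at 12.62 against 12.93 to 12.99 on the others (differences 0.12 and 0.11). Rpl11, which with Rpl5 binds Mdm2 when ribosome assembly is disturbed, differed by 0.09 and 0.08, and its groups overlapped. Rpl22, needed for the development of alpha-beta T cells, differed by -0.10 and -0.02, and Rpl41, the smallest ribosomal protein, by 0.0054 and -0.03. Rplp0, the base of the stalk, read 13.20, 13.01 and 13.14 in wild type and 13.21, 13.23 and 13.20 in the Foxp3-cre knockout, just above all wild type arrays (difference 0.10, limma adjusted p = 0.450). Rpl12 and Rpl14 differed by 0.09 and -0.08 in the CD4-cre knockout and by -0.06 and 0.10 in the Foxp3-cre knockout.

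Between the 2 knockouts the differences (Foxp3-cre minus CD4-cre) ran from -0.20 for Rps27 to 0.22 for Rpl39l, with limma adjusted p of 0.447 and 0.788. Rpl7, Rpl4 and Rplp0 lay higher on all 3 Foxp3-cre arrays than on all CD4-cre arrays, and Rpl38, Rps14, Rps15, Rps10 and Rps3 lower. The difference for Rpl7 was 0.10 (95% interval -0.07 to 0.26) and for Rps10 -0.09 (95% interval -0.28 to 0.11).

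Many members have more than 1 probe set, and these did not always give the same difference. There were 95 probe sets annotated to 1 member alone, of which 82 were tested. With each probe set tested separately, a setting chosen after seeing the data, 0 were called in the CD4-cre knockout (background 0.476%). In the Foxp3-cre knockout 1 was called, that of Rps6 (background 2.88%), and between the knockouts 0 (background 0.00807%). The arrays stood apart for 35.4% of the 82 sets in the CD4-cre knockout, 25 lower and 4 higher, against 20.1% of all probe sets. They stood apart for 19.5% in the Foxp3-cre knockout, 12 lower and 4 higher, against 21.6%, and for 19.5% between the knockouts, 9 lower and 7 higher, against 28.8%. The probe sets of 1 gene share its RNA, so they are not independent.

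Probe sets are given by brightness as a description only, since the ranges were chosen after seeing the values. Of the 10 with means between 11 and 12.5, which come from 7 genes, 10 were lower in the CD4-cre knockout (median -0.17) and 9 in the Foxp3-cre knockout (median -0.11), and 0 were called. They belong to Rpl7, Rpl13a, Rpl22, Rpl27, Rpl35, Rps20 and Rps24. Of 277 probe sets of other genes in this range, 45.5% were lower in the CD4-cre knockout and 48.4% in the Foxp3-cre knockout. Without wild type replicate 2, 10 of the 10 member sets were lower in both knockouts, with medians of -0.12 and -0.08. For the 277 others it was then 52.7% and 54.2%. The 51 member sets at 12.5 or more had medians of -0.02 and -0.03, and 32 and 36 of them (62.7% and 70.6%) were lower. Among other genes' probe sets 19.2% and 30.8% were lower at 12.5 to 13, and 41.4% and 44.8% at 13 or more. Of the 21 member sets under 11, 12 and 14 (57.1% and 66.7%) were lower (medians -0.04 and -0.09). Without wild type replicate 2 it was 9 and 12 (medians 0.05 and -0.04). In the ranges under 11, 42.6% to 46.1% of other genes' probe sets were lower in the CD4-cre knockout and 42.7% to 50.9% in the Foxp3-cre knockout. For Rpl27, whose brightest set differed by 0.09 in the CD4-cre knockout, the other 2 sets differed by -0.31 and -0.29. Dimmer sets of Rps9 and Rpl22, both with means under 11, were chosen for the size of their difference after their values were seen. The second set of Rps9 read 11.24, 11.41 and 11.15 in wild type, 10.72, 10.81 and 10.51 in the CD4-cre knockout and 10.91, 11.16 and 10.97 in the Foxp3-cre knockout. Its CD4-cre difference was -0.59 (limma adjusted p = 0.0624 over all probe sets), where the brightest set of Rps9 gave -0.06. The dimmer set of Rpl22 differed by -0.57 in the CD4-cre knockout (limma adjusted p = 0.0744) and by -0.18 in the Foxp3-cre knockout. Of the 95 probe sets, 42 carry a suffix that marks probes shared with other transcripts, and the part of such sharing in the differences was not tested.

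**Figure D4:**
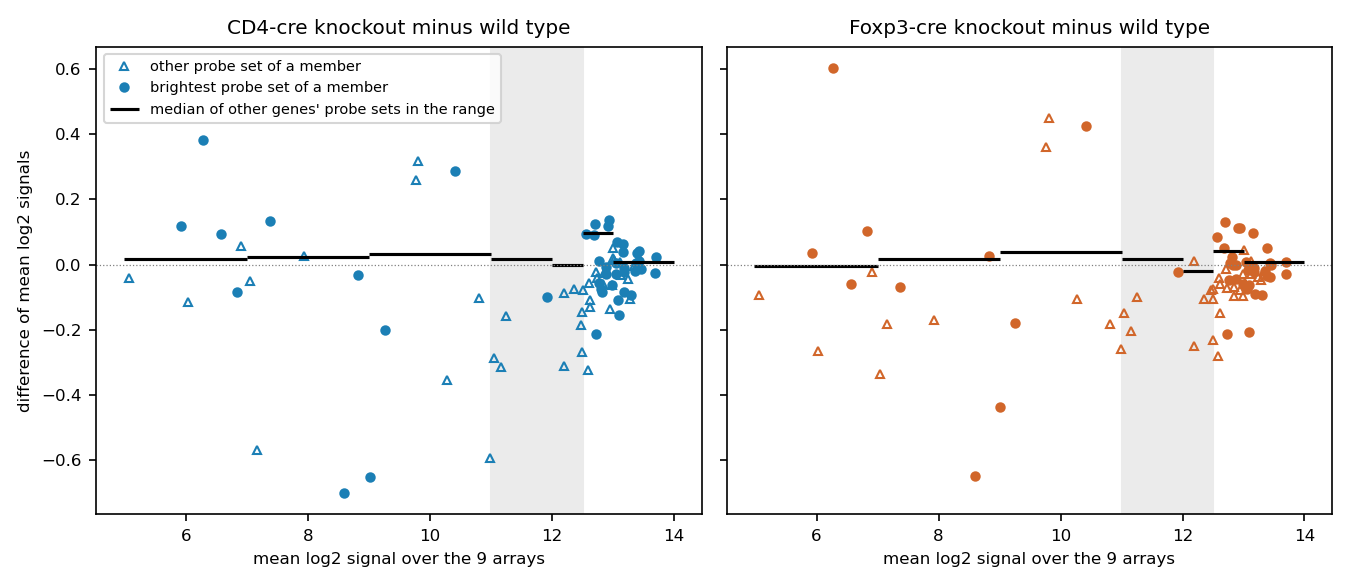
Difference of mean log2 signal from wild type (y axis) against mean log2 signal over the 9 arrays (x axis) for the 82 tested probe sets of members, filled circles for the brightest set of a gene and open triangles for the others; black bars are medians of other genes' probe sets in each signal range. In the shaded range from 11 to 12.5, 10 of 10 points lie below 0 on the left (CD4-cre) and 9 of 10 on the right (Foxp3-cre). Of 277 other genes' probe sets in that range, 45.5% and 48.4% were below 0.

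Shared probe sets gave values for some of the genes that are not members, and further values for some members. For Rpl12, Rpl14, Rpl27a, Rpl37, Rpl39, Rps6, Rps25 and Rps27 the set used above was much dimmer than a shared one. This includes Rps6, the only called member, whose set used had a mean of 8.59. The brightest shared sets of these genes had means from 12.34 (Rpl14) to 13.81 (Rps6). Of 102 that list a ribosomal protein gene with other symbols, 98 were tested and 0 were called in any of the 3 comparisons (with the backgrounds given above for single probe sets). Their median differences were -0.04 and -0.03 in the 2 knockouts. The widest difference was on a set annotated to Rps19 and its pseudogene Rps19-ps3, which read 4.22, 4.86 and 5.03 in wild type, 5.93, 5.95 and 5.82 in the CD4-cre knockout and 5.09, 6.02 and 5.69 in the Foxp3-cre knockout. Its differences of 1.20 and 0.90 rest on low signals and were not called, and the brightest set of Rps19 alone differed by -0.06 and -0.06. Some relatives of members fell outside the spelling rule. Rps3a1 differed by 0.02 and 0.05, Rpl22l1 by 0.0032 and 0.19, and Rpl7l1 by -0.32 and -0.31, with 0 called.

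Factors that work with the ribosome were read beside the members. Of 36 tested translation factors 0 were called in any comparison, with medians of 0.04, 0.05 and 0.04. Of 74 tested genes of ribosome assembly and RNA polymerase I, 1 was called. Wdr12, which helps to process the precursor of the large subunit RNA, rose by 0.46 in the Foxp3-cre knockout (limma adjusted p = 0.0412), from a mean of 7.57 to 8.03. That is 1.35% of the list, where 3.36% of all genes were called. Mitochondrial ribosomal proteins, which serve a separate ribosome, had 74 tested genes and medians of 0.07 and 0.09 in the 2 knockouts. In the Foxp3-cre knockout Mrpl18 rose by 0.53 (limma adjusted p = 0.0485) and Mrps5 fell by 0.45 (limma adjusted p = 0.0412), and in the CD4-cre knockout 0 were called. That is 2.70% of the list in the Foxp3-cre knockout, also below 3.36% of all genes, so neither count is read as a result about its list. Of 27 tested regulators of ribosomal protein output 0 were called. Myc, which drives ribosome production, differed by 0.40 and 0.49 (limma adjusted p = 0.474 and 0.268). Sesn1, an inhibitor of mTOR, differed by -0.55 in the Foxp3-cre knockout (limma adjusted p = 0.0510). Ddit4, another inhibitor of mTOR, differed by 0.59 in the CD4-cre knockout (limma adjusted p = 0.321). Mtor and Larp1 lay within 0.1 log2 of wild type in both.

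Checks of the arrays bear on these values. Wild type replicate 2 held the highest signal of 13 members and the lowest of 17, so it was an extreme array for 69.8% of the 43, against 59.4% of all tested genes. Its beta-actin signal from the start of the transcript minus that from the end was -1.53, against -0.68 to -0.45 on the other arrays. The median of the members on an array lay between 12.88 and 12.98 on all 9. Sirt1 itself was not separated by genotype (differences 0.10 and 0.03), and whether its probes lie in the removed part is not known here. Foxp3, the defining gene of regulatory T cells, read 2.67, 3.38 and 2.83 on the Foxp3-cre arrays against 9.16 to 9.68 in wild type. Its signal was thus below the threshold there, on the 1 probe set annotated to it. Whether those probes meet the Foxp3 transcript of these mice is not known here. Foxp3 was the only 1 of 7 regulatory T cell markers called in that knockout (14.3%, against 3.36% of all genes). Of the 7, 5 were higher than in wild type and 2 lower (median 0.15). Of 10 neutrophil markers 9 were higher in the Foxp3-cre knockout and 6 were called higher (60%, against 3.36% of all genes called). Their mean was 9.16 to 10.14 on those arrays against 7.78 to 8.75 in wild type. In the CD4-cre knockout 7 of the 10 were higher (median 0.68) and 0 were called (0.659% of all genes called). Of 6 tested monocyte and macrophage markers 6 were higher in the Foxp3-cre knockout and 1 was called higher (16.7%). The mean over the listed genes was 6.48 to 7.86 against 5.99 to 6.45. In the CD4-cre knockout 3 of the 6 were higher and 3 lower, with 0 called. Of 5 tested B cell markers 4 were higher in each knockout (medians 0.25 and 0.57), with 0 called. In the Foxp3-cre knockout the 7 T cell markers had 0 calls and means of 10.64 to 10.70 against 10.72 to 10.77. Their part in the members' differences was not tested, and in such bulk RNA fewer cells of a type and less RNA per cell cannot be told apart.

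**Figure D5:**
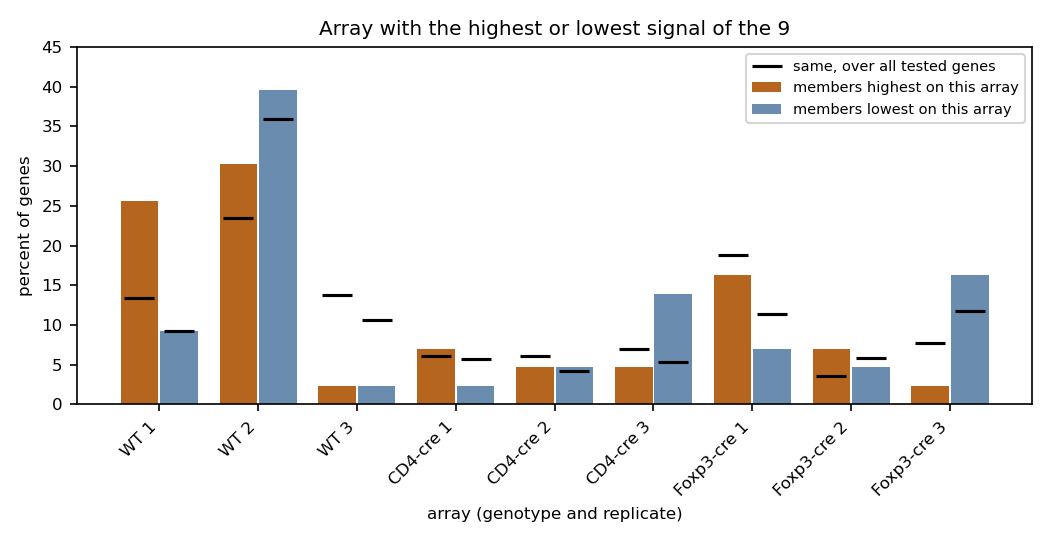
Percent of the 43 tested members whose highest (orange) or lowest (blue) signal fell on each of the 9 arrays, with black marks for the same share over all 7436 tested genes. Wild type replicate 2 holds the highest signal of 13 members and the lowest of 17.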

How the data were processed

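RNA of 9 samples was measured on Affymetrix arrays, 1 array each, in 3 groups of 3 taken from the labels. The authors' deposited values are log2 signals made with RMA, per the submitters' processing notes; no version of RMA is stated there. RMA normalizes between arrays, so a change common to all genes would be removed. The platform annotation names 1 gene for 20380 of 22690 probe sets, and 20351 of these matched RefSeq. Each gene was read on the probe set with the highest mean, and genes at or above the 40th percentile entered limma's lmFit and eBayes (limma 3.58.1, R 4.3.3; 1 fit over the 3 groups, two-sided, Benjamini-Hochberg over 7436 genes, 6 residual and 3.37 prior degrees of freedom), after a test on simulated data. SE is the standard error of a difference. Precision is limited by 3 arrays a group; since the labels do not tie the arrays of a group to different animals, p-values cover only the spread of these samples and part of it may be technical. No exact permutation test was run, as 3 arrays against 3 allow p = 0.1 at the smallest. Members and gene lists were chosen with earlier results of these data known, so no list was tested. Named members are those called, the 5 largest rises and falls of each comparison, the 3 brightest and 3 dimmest, paralogs, those whose probe sets disagree, and a fixed few.

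Same-numbered arrays of wild type and Foxp3-cre deviated together over all genes (correlations 0.25, 0.20 and 0.25), where their pairs with different numbers gave -0.27 to -0.03. Deviations were taken from the mean of each group of 3, so positive values for same-numbered pairs push the other pairs below 0. The contrast of these values is therefore not independent support for a pairing. Over all 3 groups, pairs with different numbers ran from -0.39 to 0.32, and same-numbered arrays of the 2 knockouts gave 0.19, -0.03 and 0.49. Same-numbered arrays of wild type and CD4-cre did not deviate together in each case (0.12, -0.01 and 0.23). The value with the number as a block comes from a fit over all 9 arrays. It is given beside a result of the Foxp3-cre comparison only where it changes the call (Rps27l). The pairing comes from these same data, not from the labels, so that value is no separate support for a call. With the block Rps6 stayed called in the Foxp3-cre comparison (limma adjusted p = 0.0158) and Rpl39l was not (0.0699). Alternatives covered the filter, the choice of probe set, array weights, scaling, the block, the groups in the fit and each array left out.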

Additional observations from a re-analysis of the deposited data

Results flagged for a closer look

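Rps14, a small subunit gene, lay on opposite sides of wild type in the 2 knockouts. Its arrays read 13.23, 13.01 and 13.18 in wild type, 13.21, 13.22 and 13.18 in the CD4-cre knockout and 13.14, 13.14 and 13.10 in the Foxp3-cre knockout. Every CD4-cre array was above the wild type mean and every Foxp3-cre array below it, and the knockouts differed by -0.079 (Foxp3-cre minus CD4-cre, limma adjusted p = 0.787), which is not called. Both knockouts lay within the range of the wild type arrays, whose replicate 2 was the lowest of the 9. Such opposite sides were seen in 2 of 43 members (4.65%) and in 4.49% of all tested genes.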

How the results depend on the processing

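The count of called members was 1, 1 and 0 in the 3 comparisons. For the CD4-cre knockout it was 0 with no filter on dim genes, with the median over probe sets, without probe sets whose suffix marks shared probes, with only the 2 groups compared, after quantile normalization again, with each array centred, and with each probe set tested separately (chosen after seeing the data). With array weights it was 2 (Rps6 and Rps27l). For the Foxp3-cre knockout it was 0 with the median over probe sets and with only the 2 groups compared, 3 with array weights (Rps6, Rps27l and Rpl39l) and 2 with the replicate block (Rps6 and Rps27l). The block changed no other member's call. Leaving out 1 array gave 0 to 1 for CD4-cre and 0 to 2 for Foxp3-cre. The CD4-cre call was kept without wild type replicate 2 or 3 alone, and the Foxp3-cre call without any 1 wild type array but not without any 1 knockout array. Between the knockouts it was 0 in all 20 settings. The cause was not tested. The members' medians stayed between -0.03 and 0.0028, -0.04 and 0.0036, and -0.0067 and 0.0065. Over all genes, the counts of 49, 250 and 1 called became 1298, 1539 and 812 with array weights and 22, 16 and 55 with only the 2 groups. The CD4-cre count was 29 with the filter at the 60th percentile. The count between the knockouts was 5 after quantile normalization again, 8 with each array centred and 96 with the replicate block. Leaving out 1 array gave 4 to 191, 71 to 567 and 1 to 72, the highest each time without wild type replicate 2. Signal over background limits Rpl3l, which was not tested.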
